A study of Mus musculus with 24 samples.

Results

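Neuroblastoma tumors of mice that express IGF2BP1 and MYCN were compared with neuroblastoma tumors of mice that express IGF2BP1 without the MYCN transgene. The 16 tumors were all tumors among the 24 samples of the series, and they were chosen by the genotype in their labels, 8 in each group. TI tumors carried the IGF2BP1 transgene and CRE +, with 1 labelled +/- and 7 labelled +/+. TIM tumors were labelled IMP1/MYCN, CRE +, where IMP1 is another name of IGF2BP1. In both groups the human open reading frame stood at the Rosa26 locus behind a stop cassette, which an iCre driven by the Dbh promoter removes in cells of the sympatho-adrenal lineage. Per the study, TIM mice had 1 copy of each transgene. Most TI mice therefore had an additional IGF2BP1 copy, which cannot be told apart from the effect of MYCN. Tumors were taken when the animals met the termination criteria, and the labels give no age. Per the study, IGF2BP1/MYCN mice had a much shorter median survival than mice homozygous for IGF2BP1. Age and genotype therefore cannot be told apart either. The labels do not tie a tumor to an animal, and TIM animals could bear several tumors, so tumors may share an animal and p-values measure only the spread between these samples. The labels place 1 TI and 2 TIM tumors in the adrenal gland and 1 TIM tumor at the spine, and call the others only tumor. Adrenal glands served as a side comparison: AG from mice labelled CRE - (n = 3), and AGM from mice with MYCN +/-, CRE + and no tumor (n = 5). Of the TI samples, 6 were sequenced in run 1, 1 in run 2 and 1 in run 3, whereas run 2 held 3 TIM samples and run 3 the other 5. Run and group therefore largely cannot be told apart, and the comparison was not repeated per run because the expression columns could not be tied to single samples. Tumors are named here by their column, as T_I to T_I_7 and T_IM to T_IM_7.

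IGF2BP1 is an RNA-binding protein of fetal tissues that binds target transcripts and protects them from decay, and MYCN mRNA is among its known targets. MYCN is a transcription factor that pairs with MAX, binds E-boxes in promoters, and drives ribosome production, nucleotide synthesis, glycolysis and the cell cycle. Neuroblastoma arises from precursors of sympathetic neurons and adrenal chromaffin cells, and in patients amplification of MYCN marks aggressive disease.

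The labelled cell type was checked with marker genes in FPKM (fragments per kilobase of gene length, scaled to library size). Hand2, a transcription factor of this lineage, stood at 32.5, 57.7 and 64.5 FPKM (lowest, median and highest TI tumor; this order is kept throughout) and at 29.1, 44.2 and 64.8 FPKM in TIM tumors. Its ranges overlapped almost wholly (limma FDR 0.435). The 7 marker genes of the adrenal cortex reached at most 3.54 FPKM (Hsd3b1) in any tumor, against 132 FPKM for Cyp21a1 alone in the median AG gland, and the 6 lymphocyte markers reached at most 0.219 FPKM (Cd79a). Other lineage markers were lower in single tumors. The lowest Gata3 value was 0.567 FPKM among TI tumors and 0.186 FPKM among TIM tumors, and that of Ddc among TIM tumors was 0.271 FPKM. The lowest AG gland had 1.81 FPKM of Gata3 and 2.02 FPKM of Ddc, and Phox2a had medians of 53.6 and 17.9 FPKM in TI and TIM. As in any bulk sample, fewer cells of a type and less RNA per cell cannot be told apart.

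The reads behind the values numbered 12334076 to 21284047 per TI tumor and 14531715 to 23653740 per TIM tumor, outside genes that exceeded 1000 FPKM in a library. Genes above 1000 FPKM held 0.217% to 2.21% of the reads in TI tumors and 64.5% to 97.3% in TIM tumors. AG and AGM glands had 0.702% to 0.792% and 86.1% to 98.6%, so a like gap was present between the glands. AG and AGM differ in run (1 and 2) and also in the MYCN transgene. All 8 TI columns stood in the low range, and 1 TI sample was sequenced in run 2 and 1 in run 3. The cause of the gap was not tested. TIM tumors also varied more among themselves, with a median Pearson correlation of 0.755 between pairs across the tested genes against 0.918 between TI tumors. The spread on the log2 scale was larger in TIM for 66.8% of the tested genes.

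To determine which genes differ between both tumor models, log2(FPKM + 1) values were fitted with limma for the 8549 genes that reached 1 FPKM in 3 or more of the 16 tumors. At an FDR below 0.05, 1225 genes were called, or 14.3% of those tested. Of these, 512 (5.99%) rose and 713 (8.34%) fell in TIM, so 41.8% of the calls were rises. After the tumors were rescaled to equal medians, 590 rose and 523 fell, and rises made up 53% of the calls. The sign of the majority thus turned with the scaling, while the median log2 difference over all genes was -0.03. An absolute log2 difference of at least 1 was reached by 224 called genes, of which 174 rose and 50 fell. For 142 genes (1.66%) the 8 TIM values did not overlap the 8 TI values, 66 higher and 76 lower in TIM. Because 1 was added to each FPKM before the logarithm, differences of weakly expressed genes are understated, and 276 of the 512 rising genes had a TI mean below 1 FPKM.

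MYCN and MAX recognise the E-box CACGTG, so the windows from 250 bases before to 50 bases after the transcript start were searched for it. The sequence is its own reverse complement, and 1 search covers both strands. Of all 21687 windows 7.88% held it, and of the windows of tested genes 10.4%. It was present in 69 of 510 windows of genes that rose (13.5%), in 66 of 712 of genes that fell (9.27%) and in 10.2% of the remaining tested genes. Of the list of nucleotide, polyamine and one-carbon genes 8 of 37 members held it (21.6%), and of the ribosome biogenesis list 7 of 41 (17.1%). It was held by 15.4% of the glycolysis and hypoxia list, 8.33% of the G2 and M phase list, 3.03% of the S phase list and by none of the catecholamine and synaptic vesicle lists. A match is a description of letters and shows no binding. Windows of 3 genes that rose and 1 that fell, all without overlap between the groups, are printed from GRCm39 on the plus strand, with the motif in capitals. They are Srm (chr4:148675690-148675989), Nop2 (chr6:125108570-125108869), Ldha (chr7:46495013-46495312) and Hnrnpa3 (chr2:75489355-75489654).
Srm: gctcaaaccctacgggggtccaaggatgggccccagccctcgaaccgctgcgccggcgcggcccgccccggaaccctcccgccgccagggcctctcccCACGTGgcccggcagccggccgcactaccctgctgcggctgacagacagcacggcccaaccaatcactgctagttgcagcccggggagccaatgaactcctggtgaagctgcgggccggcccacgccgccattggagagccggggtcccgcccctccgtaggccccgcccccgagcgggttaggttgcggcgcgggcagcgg
Nop2: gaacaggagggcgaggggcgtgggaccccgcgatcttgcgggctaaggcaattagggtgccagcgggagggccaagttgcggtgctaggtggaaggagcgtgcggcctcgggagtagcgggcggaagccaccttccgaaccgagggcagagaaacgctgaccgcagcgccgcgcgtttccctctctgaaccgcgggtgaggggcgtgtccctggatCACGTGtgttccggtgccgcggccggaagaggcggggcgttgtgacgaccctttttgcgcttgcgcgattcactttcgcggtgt
Ldha: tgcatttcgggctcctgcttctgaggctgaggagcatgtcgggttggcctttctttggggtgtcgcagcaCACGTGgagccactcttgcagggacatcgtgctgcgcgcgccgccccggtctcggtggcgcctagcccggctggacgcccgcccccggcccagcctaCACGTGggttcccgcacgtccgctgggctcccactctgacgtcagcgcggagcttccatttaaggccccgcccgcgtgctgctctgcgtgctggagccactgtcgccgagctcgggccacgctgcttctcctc
Hnrnpa3: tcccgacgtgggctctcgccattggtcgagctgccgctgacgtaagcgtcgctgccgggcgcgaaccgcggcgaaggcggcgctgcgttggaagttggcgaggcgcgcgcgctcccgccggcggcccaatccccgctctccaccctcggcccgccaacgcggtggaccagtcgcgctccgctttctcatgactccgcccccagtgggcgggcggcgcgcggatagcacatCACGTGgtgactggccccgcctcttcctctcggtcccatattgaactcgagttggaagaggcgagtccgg
The motif began 152 bases before the start of Srm, 34 before that of Nop2, 180 and 83 before that of Ldha and 20 before that of Hnrnpa3. It was thus found on either side of the comparison, also in a gene that fell.

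The mouse genes of both transgenes were examined first. Mycn (ENSMUSG00000037169, chromosome 12, 12986076 to 12992915) stood at 1.57, 7.67 and 15.6 FPKM in TI and at 1.2, 2.97 and 4.38 FPKM in TIM. All 8 TIM tumors lay below the TI median, although the ranges overlapped. The endogenous gene fell by 1.14 ± 0.34 (SE) on the log2 scale (limma FDR 0.0355), and the call was lost in 11 of 24 alternative settings, with an FDR of up to 0.0721. Igf2bp1 (ENSMUSG00000013415, chromosome 11, 95847989 to 95896911) was below the filter, with 0, 0.00984 and 0.0157 FPKM in TI and 0.00344, 0.0209 and 0.0796 FPKM in TIM. These values rest on 0 to 16 and 3 to 81 reads, and 7 of 8 TIM tumors exceeded every TI tumor. The log2 difference was 0.03 (exact two-sided permutation p 0.0118; 12870 assignments of 16 tumors allow a p of 0.0001554 at the smallest). The human transgenes were no separate features of the table, and their expression was not measured here.

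The 12 largest rises were taken among genes with at least 1 FPKM on average in both groups. Egr4 (ENSMUSG00000071341, chromosome 6, 85485678 to 85490675), an early growth response transcription factor of neurons, stood at 0, 2.14 and 7.3 FPKM in TI and at 13.6, 71 and 635 FPKM in TIM. Every TIM tumor exceeded every TI tumor, with a log2 difference of 5.02 ± 0.73 (SE; limma FDR 0.000701). Vgf, a secreted neuropeptide precursor of nerve cells, had 0.983, 1.86 and 7.61 FPKM in TI and 3.18, 96.7 and 469 FPKM in TIM. Its ranges overlapped at their edge, and it rose by 3.93 ± 0.84 (limma FDR 0.00737). Tmem158 stood at 0.0769, 0.832 and 3.61 FPKM in TI and at 5.94, 14.9 and 75.2 FPKM in TIM, again without overlap (3.32 ± 0.51; limma FDR 0.00104). Of these 12 genes, the smallest error relative to the difference belonged to Got1 (ENSMUSG00000025190, chromosome 19, 43488188 to 43513674), the cytosolic aspartate aminotransferase of the malate-aspartate shuttle. It moved from 1.01, 1.68 and 4.89 FPKM in TI to 8.75, 13 and 16.9 FPKM in TIM (2.11 ± 0.22; limma FDR 3.09e-05). The groups did not overlap for Got1, and its call held in all 25 alternative settings.

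The remaining large rises spanned secreted, surface and redox proteins. Apod, a lipid carrier, had medians of 0.82 and 13 FPKM in TI and TIM (log2 difference 2.74), and Gpx3, a secreted glutathione peroxidase, of 6.14 and 41.6 FPKM (2.16). Thy1, a surface protein of neurons and fibroblasts, moved from 0.876 to 8.66 FPKM (2.11), Mt1, a metal-binding metallothionein, from 3.07 to 14.3 FPKM (2.08) and Ldhb, a lactate dehydrogenase subunit, from 1.7 to 10.6 FPKM (2.05). Slc18a1, which loads catecholamines into vesicles, Prxl2b and Smoc1 rose by 1.76, 1.71 and 1.69. All 8 had a limma FDR between 0.0027 for Prxl2b and 0.0316 for Apod, and the calls of Apod, Smoc1 and Gpx3 were lost in 8, 7 and 2 of the alternative settings.

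The largest falls included structural and signaling genes of neurons. Prph (peripherin), an intermediate filament of peripheral neurons, was at 0.643, 27.9 and 105 FPKM in TI and at 0.255, 3.09 and 17 FPKM in TIM. Its TI range covered the TIM range almost wholly, and its fall by 2.40 ± 0.75 (SE; limma FDR 0.042) was lost in 14 of 24 settings. Nxf3, an RNA export factor encoded on the X chromosome, moved from 7.69, 27.3 and 51.4 FPKM to 1.35, 2.37 and 11.9 FPKM and fell by 2.24 ± 0.49 (limma FDR 0.00873). Begain (chromosome 12, 108998104 to 109034294), a partner of postsynaptic scaffold proteins, stood at 9.71, 23.2 and 31.7 FPKM in TI and at 1.19, 5.06 and 14.3 FPKM in TIM. All TIM tumors lay below the TI median for Begain, which fell by 1.90 ± 0.34 (limma FDR 0.00282). Clic1 (chromosome 17, 35266900 to 35277725), a chloride channel protein, moved from 20.2, 24.8 and 35.3 FPKM to 1.56, 10.4 and 17.6 FPKM, with no overlap (-1.45 ± 0.31; limma FDR 0.00709).

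Among the other large falls, Egln3, an oxygen-sensing prolyl hydroxylase that is itself induced by HIF, had medians of 15.9 and 2.52 FPKM in TI and TIM and fell by 2.07. Sctr, the secretin receptor (6.41 and 0.884 FPKM), Kif26a, an unconventional kinesin (11.8 and 1.94 FPKM), and Tagln2, an actin-binding protein (27.2 and 5.33 FPKM), fell by 2.04, 1.90 and 1.83. Gfra3, the artemin receptor of sympathetic neurons, had medians of 39 and 8.66 FPKM and fell by 1.66, a call lost in 8 of 25 settings. Nxph4, Rcn1 and Xlr3c fell by 1.60, 1.5 and 1.40. Xlr3c belongs to a family of near-identical genes on the X chromosome, so its assignment is uncertain.

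**Figure D1:**
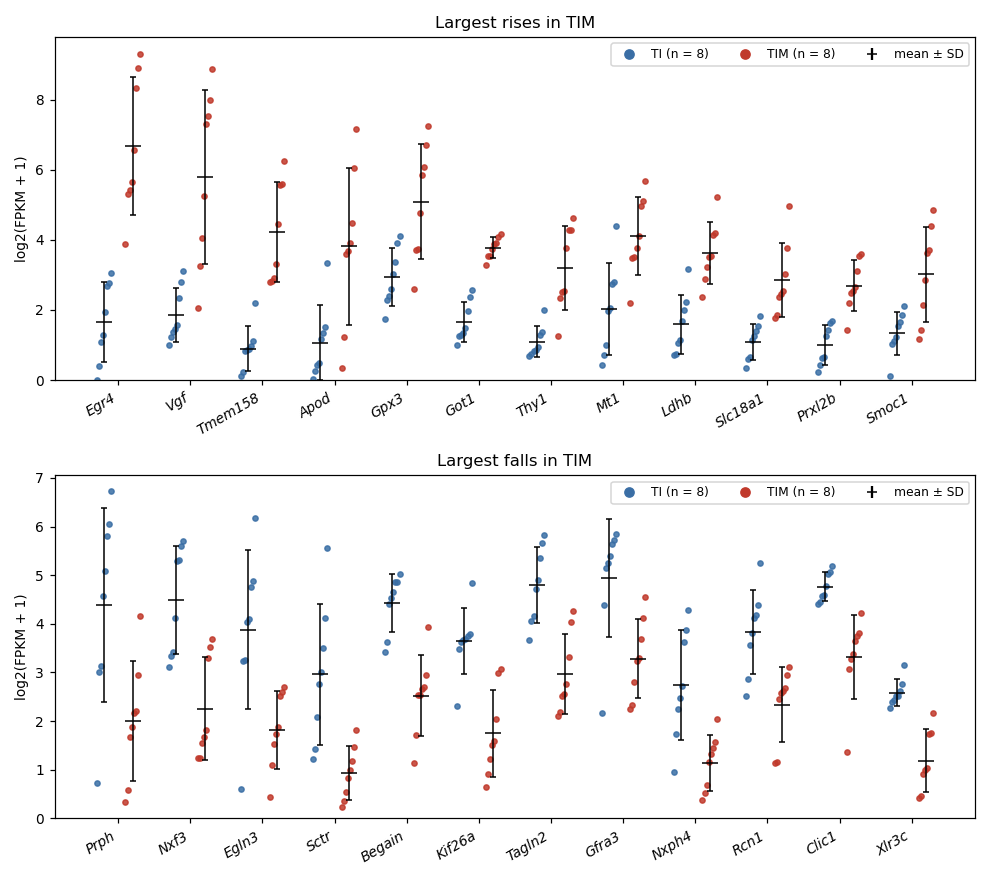
Level of the 12 largest rises and the 12 largest falls in each tumor (points; log2(FPKM + 1) on the vertical axis, TI in blue and TIM in red, n = 8 each) with the mean and SD in black. TIM tumors lie above all TI tumors for Egr4, Tmem158 and Got1 and below all for Clic1 and Xlr3c, whereas the TI values of Prph span 0.643 to 105 FPKM and cover most TIM values.

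Genes of energy metabolism were the list with the highest share of rises. Of 26 tested genes of glycolysis and the hypoxia response, 11 rose (42.3%, beside 5.99% of all genes) and 2 fell, with a median log2 difference of 0.46 beside -0.03. Ldha, the lactate dehydrogenase that ends glycolysis, stood at 5.4, 15.2 and 17.9 FPKM in TI and at 23.2, 39.4 and 63.1 FPKM in TIM (1.52 ± 0.24; limma FDR 0.00142). Aldoa, an aldolase, moved from 18.9, 23.5 and 41.7 FPKM to 47.5, 79.3 and 259 FPKM (1.63 ± 0.30; limma FDR 0.00353). Neither gene overlapped between the groups, and the same held for Pgam1, a phosphoglycerate mutase, with medians of 18.1 and 28 FPKM. The glucose transporters Slc2a1 (medians of 0.932 and 3.52 FPKM) and Slc2a3 (4.27 and 8.78 FPKM) rose by 1.05 and 0.98. Further enzymes that rose were Pfkm (1.54), Eno2 (1.57), Tpi1 (1.13), Ldhb (2.05) and Pgk1 (0.50). Both genes that fell are regulators: Hif1a, the oxygen-regulated subunit of HIF, went from 2.02, 3.13 and 4.26 FPKM to 0.678, 1.57 and 1.81 FPKM (-0.71 ± 0.13; limma FDR 0.00379), and Egln3 is described above. Hif1a and Egln3 lie on chromosome 12, and 4 of the rising genes on chromosome 6. On the other chromosomes than 6, 11, 12 and 17, 7 of 16 members rose and 0 fell.

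Of 19 tested genes of cholesterol synthesis 5 rose (26.3%, beside 5.99% of all genes) and 0 fell. All 19 had a positive difference (median 0.40). Mvd, the mevalonate decarboxylase, had 1.66, 2.17 and 2.78 FPKM in TI and 2.32, 3.94 and 7.18 FPKM in TIM (0.61 ± 0.18; limma FDR 0.0333). Dhcr7, the last enzyme of the pathway to cholesterol, had medians of 1.69 and 2.73 FPKM (0.54; limma FDR 0.0262), and Msmo1, Nsdhl and Mvk rose by 0.62, 0.47 and 0.39. The number of rises was 0 without T_I_1 and 0 without T_I_6, and between 2 and 8 without any other tumor.

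Textbook MYC target classes came next. Of 37 tested genes of nucleotide, polyamine and one-carbon metabolism 6 rose (16.2%, beside 5.99% of all genes) and 0 fell (median 0.06). Srm, the spermidine synthase and a textbook MYC target, stood at 7.97, 9.64 and 11.2 FPKM in TI and at 12.1, 19.2 and 25.4 FPKM in TIM. No TIM tumor reached down to a TI tumor (0.84 ± 0.17; limma FDR 0.00498). Slc3a2, a chain of amino acid transporters, had medians of 5.12 and 10.2 FPKM (0.82; limma FDR 0.0197), Aldh18a1 (proline synthesis) of 2.72 and 4.76 FPKM (0.59) and Phgdh (serine synthesis) of 0.0468 and 1.7 FPKM (1.12). Phgdh passed the filter through TIM tumors and lost its call on recovered reads (limma-voom FDR 0.247). Odc1, the ornithine decarboxylase upstream of Srm, had medians of 8.95 and 11.1 FPKM and did not pass (0.07; limma FDR 0.887).

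Of 41 tested ribosome biogenesis genes 3 rose (7.32%) and 2 fell (4.88%), with a median of 0.06. These shares were near those of all genes (5.99% and 8.34%). Nop2, a nucleolar rRNA methyltransferase, was at 2.84, 3.65 and 4.99 FPKM in TI and at 6.43, 7.49 and 9.84 FPKM in TIM, without overlap (0.89 ± 0.12; limma FDR 0.000453). Rcl1 and Grwd1 rose by 0.48 and 0.45, while Ubtf, the factor that opens ribosomal DNA for transcription, and Ftsj3 fell by 0.60 and 0.52. Nop2 lies on chromosome 6, and Ubtf and Ftsj3 lie on chromosome 11. Ncl and Npm1, the abundant nucleolar proteins, had medians of 9.3 and 6.59 FPKM and of 22.8 and 24.9 FPKM in TI and TIM and did not pass (limma FDR 0.46 and 0.609). Of 77 cytosolic ribosomal proteins 0 rose and 1 fell (1.3%, Rps7 on chromosome 12), with a median of -0.06. Of 11 MYC and MAX network genes Mxi1 rose (0.33) and Mycn fell (9.09% each). The calls of Ftsj3, Rps7 and Mxi1 were lost in 10 of 24, 15 of 24 and 15 of 25 settings. Myc itself had medians of 0.795 and 0.389 FPKM (-0.42; limma FDR 0.0866).

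Few cell cycle genes passed singly, and their shares were close to those of all genes. Of 48 tested G2 and M phase genes 0 rose and 5 fell (10.4%, beside 8.34% of all genes), and 1 had a positive difference, with a median of -0.66. Mki67, a marker of cycling cells, stood at 1.46, 4.06 and 5.12 FPKM in TI and at 0.0328, 1.56 and 3.03 FPKM in TIM (-1.0 ± 0.26; limma FDR 0.0208). Tmpo, Cdc25c, Cenpf and G2e3 were the other members that fell, by 0.93, 0.85, 0.56 and 0.51. Birc5 (survivin) had medians of 6.15 and 2.43 FPKM and a limma FDR of 0.0516. Of 33 S phase genes 0 rose and 3 fell (9.09%; Slbp, Ubr7 and Pold3), and none had a positive difference (median -0.49). The mean level of the G2 and M list was 1.43, 2.38 and 3.15 on the log2 scale in TI and 0.525, 1.84 and 2.44 in TIM. The tumors overlapped widely, as 2 of 8 TIM tumors lay below every TI tumor. T_IM_4 had the lowest level of either cycle list and T_I_3 the lowest of TI. The number of G2 and M genes that fell was 9 to 17 without T_I_3, T_I_5, T_IM_2, T_IM_5, T_IM_6 or T_IM_7, and 2 or 3 without T_I_1, T_I_2, T_I_4, T_I_6, T_IM_1 or T_IM_3. S phase genes fell in 6 or 7 cases without T_I_3, T_I_5 or T_IM_7.

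Regulators of the G1 phase changed in both directions. Of 23 tested genes of the E2F, pocket protein and G1 list, 2 rose (8.7%) and 6 fell (26.1%), beside 5.99% and 8.34% of all genes. Cdkn1a (p21), a p53 target that blocks cyclin-dependent kinases, had 8.42, 15 and 24.5 FPKM in TI and 3.11, 5.49 and 8.83 FPKM in TIM (-1.36 ± 0.25; limma FDR 0.00314). Cdkn2c (p18) moved from 1.93, 3.5 and 8.73 FPKM to 0.177, 0.702 and 2.12 FPKM (-1.42 ± 0.25; limma FDR 0.00277). Cdkn1c (p57) went the other way, from 0.00403, 0.222 and 0.443 FPKM to 0.209, 7.64 and 34.6 FPKM (2.40 ± 0.55; limma FDR 0.0102). These 3 inhibitors of cell cycle kinases did not move together. Cdkn1c passed the filter of 1 FPKM through TIM tumors only, so it could hardly be called in the other direction. It is counted among the 2 rises and did not pass on recovered reads (limma-voom FDR 0.21). Ccne1 (cyclin E) rose by 0.70, and E2f6, Rb1, Tfdp1 and Lin52 fell by 0.57, 0.34, 0.74 and 0.37. Of 23 genes of p53 and its targets 2 rose (8.7%; Tigar and Plk3) and 3 fell (13%; Trp53, Mdm4 and Cdkn1a), beside 5.99% and 8.34% of all genes. The calls of Trp53 and Mdm4 were lost in 14 and 2 of 24 settings. Of 14 genes of MYCN protein turnover 1 rose (7.14%) and 2 fell (14.3%). Fbxl14 rose by 0.52, and Fbxw7 and Akt1 fell by 0.51 and 0.52. Aurka, which shields MYCN from degradation, did not pass (medians of 4.24 and 2.2 FPKM; limma FDR 0.186). The calls of Fbxl14, Fbxw7 and Akt1 were lost in 13, 13 and 6 of 24 settings.

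Of 37 tested hnRNP and SR splicing factors 7 fell (18.9%, beside 8.34% of all genes) and 1 rose, and 2 had a positive difference (median -0.43). Hnrnpa3 stood at 6.43, 6.98 and 7.79 FPKM in TI and at 1.5, 3.58 and 5.72 FPKM in TIM, without overlap (-0.80 ± 0.16; limma FDR 0.00475). Srsf1 fell from a median of 16.6 to 6.12 FPKM (-1.12 ± 0.29; limma FDR 0.0208) and Hnrnph1 from 17.1 to 8.59 FPKM (-0.91; limma FDR 0.0215). Hnrnpm, Hnrnpa0, Hnrnph3 and Tra2a fell by 0.67, 0.60, 0.60 and 0.83, and Pcbp1 rose by 0.52. The mean level of the list was 3.10, 3.41 and 3.71 in TI and 2.1, 2.98 and 3.30 in TIM on the log2 scale, and 5 of 8 TIM tumors lay below all TI tumors. T_IM_4 had the lowest level. The list moved in the glands too, where its median was -0.68 in AGM minus AG and 19 members were lower in AGM. Without T_IM_4 5 members fell and the median was -0.27. The number of falls was 4 without T_I_1, T_I_2, T_I_6, T_IM or T_IM_1, 11 without T_I_3 and 14 without T_IM_5.

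Neuronal secretion genes rose where they changed. Of 24 tested genes of synaptic vesicles and exocytosis 5 rose (20.8%, beside 5.99% of all genes) and 0 fell, with a median of 0.48. Syt4, a vesicle calcium sensor, stood at 0.587, 2.59 and 4.87 FPKM in TI and at 2.91, 9.34 and 16.1 FPKM in TIM (1.33 ± 0.33; limma FDR 0.0167). Snap25, a membrane fusion protein, had medians of 3.48 and 6.66 FPKM (0.73; limma FDR 0.0194), and Syt5 and Rab3a rose by 1.47 and 0.88.

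Catecholamine genes spread widely among TIM tumors. Th, the rate-limiting enzyme of catecholamine synthesis, stood at 18.1, 95.7 and 235 FPKM in TI and at 11.8, 383 and 1889 FPKM in TIM, and did not pass (1.86 ± 0.95; limma FDR 0.182). Dbh, whose promoter drives the Cre, did not pass either (medians of 87.2 and 109 FPKM; limma FDR 0.429). Of 19 tested members Slc18a1 rose (5.26%), and Slc6a2, the noradrenaline transporter of the cell surface, and Maob, an amine oxidase, fell (10.5%). Among all genes 5.99% rose and 8.34% fell. Slc6a2 went from 0.792, 1.47 and 10.1 FPKM to 0.185, 0.375 and 0.585 FPKM with no overlap (-1.36 ± 0.35; limma FDR 0.0197). Slc18a1, for vesicle loading, and Slc6a2, for uptake, thus moved in opposite directions, which rests on 1 gene for each role. The mean level of the list was 2.48, 3.63 and 4.89 in TI and 2.44, 4.23 and 6.0 in TIM, with the highest value in T_IM_4.

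Of 18 sympatho-adrenal transcription factors 0 rose and 2 fell (11.1%, beside 8.34% of all genes), with a median of -0.44. Isl1, a LIM homeobox factor of sympathetic neurons, moved from 11.6, 23.1 and 47.8 FPKM to 3.68, 8.29 and 13.3 FPKM (-1.26 ± 0.28; limma FDR 0.0101), and Zfhx3 fell by 0.59. Phox2a had medians of 53.6 and 17.9 FPKM and a limma FDR of 0.0795. Of 9 tested receptor kinase genes of neuroblastoma 1 fell (11.1%, Gfra3). Neither Alk (medians of 1.64 and 2.37 FPKM; limma FDR 0.946) nor Ret (3.27 and 9.22 FPKM; limma FDR 0.0671) passed. Of the study's adrenergic list 14 of 279 tested genes rose and 19 fell (median -0.07), and of its mesenchymal list 16 of 273 rose and 14 fell (median 0.10), shares close to those of all genes.

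**Figure D2:**
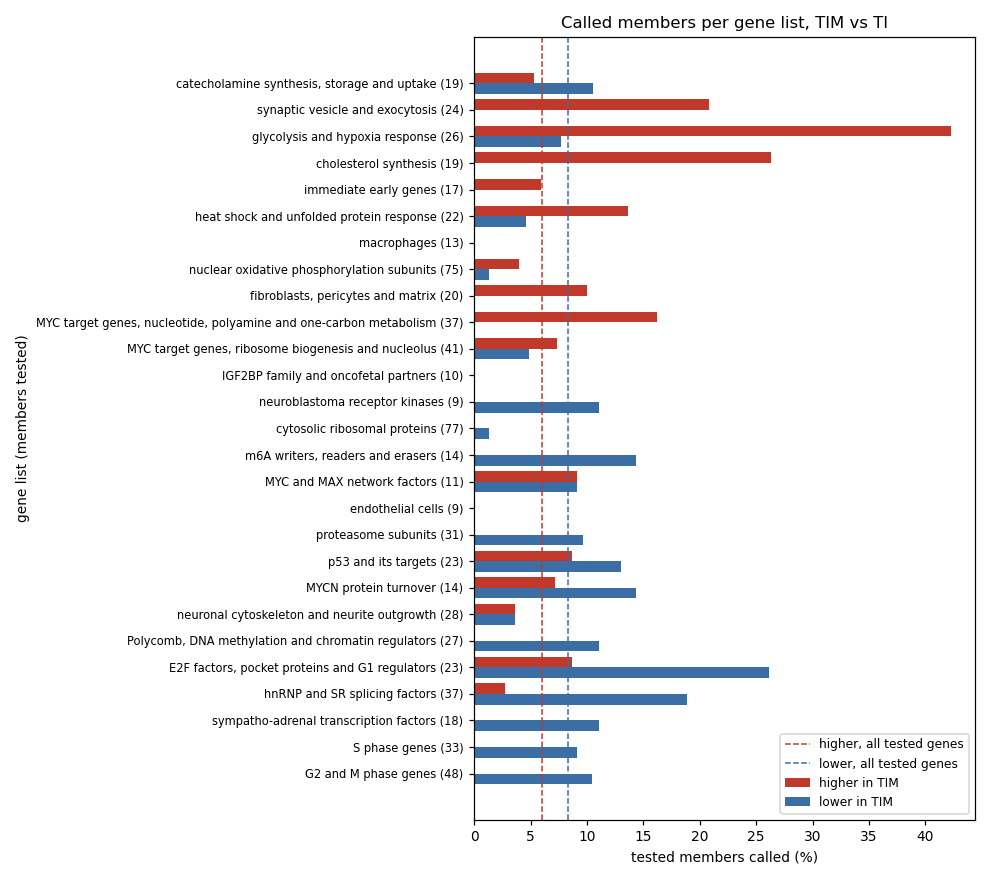
Share of the tested members (in percent, horizontal axis) that rose (red) or fell (blue) in TIM against TI, for lists with at least 9 tested members, in order of their median log2 difference. Dashed lines mark the shares over all tested genes (5.99% and 8.34%), and the glycolysis and hypoxia list has the longest red bar, at 42.3%.

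**Figure D3:**
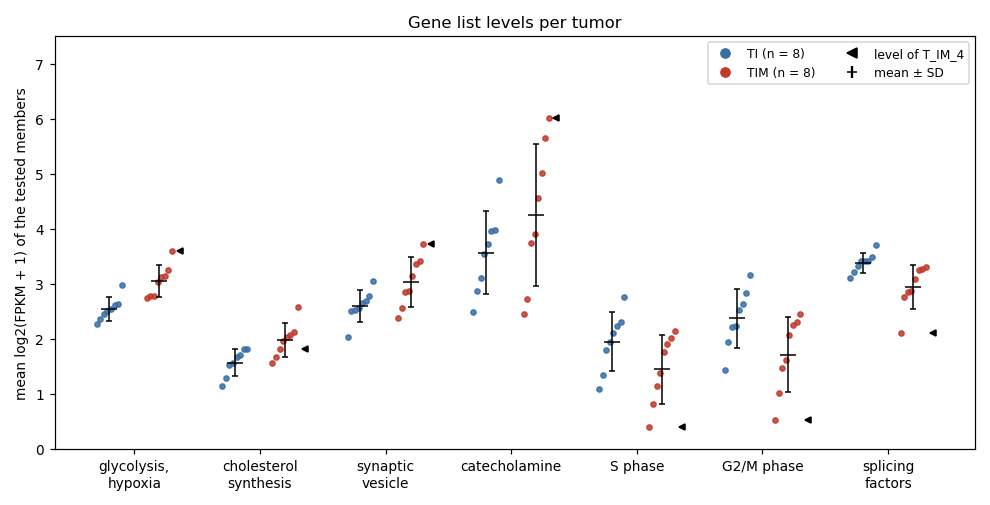
Mean log2(FPKM + 1) over the tested members of 7 lists in each tumor (points, TI in blue and TIM in red, n = 8 each) with mean and SD, and with T_IM_4 marked by an arrowhead. T_IM_4 is lowest for S phase, G2 and M phase and splicing genes and highest for glycolysis, synaptic and catecholamine genes.

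Several lists held few calls, where 5.99% of all genes rose and 8.34% fell. Of the IGF2BP family and its oncofetal partners 0 of 10 tested genes were called. Of 14 genes of m6A, the RNA mark that IGF2BP1 reads, 0 rose and 2 fell (14.3%, Ythdc1 and Cbll1). Of 75 nuclear subunits of oxidative phosphorylation 3 rose (4%) and 1 fell (1.33%). Of 31 proteasome subunits 0 rose and 3 fell (9.68%, Psmc1, Psmd3 and Psmb3). All 3 lie on chromosomes 11 and 12, and of the 21 members elsewhere than on 6, 11, 12 and 17 none fell. Of 27 chromatin regulators 3 fell (11.1%), which were Suz12, Bmi1 and Atrx, by 0.71, 0.64 and 0.31. Of 22 genes of the heat shock and unfolded protein response 3 rose (13.6%) and 1 fell (4.55%). Asns, Chac1 and Herpud1 rose (0.86, 0.66 and 0.72) and Pdia6 fell (0.58). Of 17 immediate early genes Ier3 rose (5.88%). Of 28 genes of the neuronal cytoskeleton Tubb2a rose (0.67) and Prph fell (3.57% each). Calls were lost in 15 of 23 settings for Cbll1, 15 of 24 for Psmb3 and 13 of 23 for Suz12. They were lost in 15 of 24 settings for Atrx, 14 of 23 for Ier3 and 16 of 25 for Tubb2a.

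Markers of other cell types were measured beside these lists. Of the macrophage list 0 of 13 tested genes were called, of the endothelial list 0 of 9, and of the skeletal muscle list 0 of 5. Of the fibroblast and matrix list 2 of 20 rose (10%, Thy1 and Twist1), beside 5.99% of all genes. The call of Twist1 was lost in 13 of 23 settings. The mean level of this list was 1.27, 1.81 and 3.41 in TI and 1.54, 2.20 and 2.63 in TIM. Col1a1, the main fibroblast collagen, had medians of 6 and 10.4 FPKM (limma FDR 0.91). Of 8 Schwann and sustentacular cell genes Gfra3 fell, while Sox10 and Foxd3 reached 15.3 and 20.4 FPKM in single TIM tumors and at most 0.398 and 0.304 FPKM in TI (limma FDR 0.132 and 0.0887). Sox10 and Foxd3 passed the filter through TIM tumors only. Of the cortex list Fdxr fell, 1 of 5 tested. Of the liver, kidney and pancreas list Apoa2 rose, 1 of 4 tested, a call lost in 12 of 23 settings. The mean level of its 4 tested members was 0.0696, 0.125 and 0.313 in TI and 0.0696, 3.77 and 10.8 in TIM on the log2 scale. By this level 6 of 8 TIM tumors lay above every TI tumor. All 21 listed genes together summed to at most 1.34 FPKM in any TI tumor. The 4 tested members, Apoa2 among them, thus passed the filter mainly through TIM tumors. The separation by their level is therefore largely set by the filter and is no separate evidence. The pancreas gene Cpa1 passed the filter through TIM tumors only, with at most 0.0313 FPKM in TI and 105724 FPKM in TIM. The other pancreas markers did not go with it. Cpb1 and Prss2 had a TIM median of 0 FPKM and reached at most 0.258 and 13.4 FPKM in TIM. In AGM glands Cpb1 stood at 28333 to 57986 FPKM, whereas Cpa1 reached at most 0.00622 FPKM. High Cpa1 values therefore cannot be read as pancreas tissue. Over all 21 listed genes the mean level reached at most 0.0764 in TI and 2.54 in TIM. Of the adipocyte list 0 of 3 tested genes were called (median 0.91), and Adipoq reached 5.16 FPKM in TIM and at most 0.193 FPKM in TI. Their part in the differences between the tumors was not tested.

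Genes that changed were not spread evenly over the genome. Of the 713 genes that fell, 356 (49.9%) lay on chromosomes 11, 12 and 17, which hold 18.4% of the tested genes. On chromosome 12, which carries Mycn, 123 of 309 tested genes fell (39.8%) and 7 rose. On chromosome 11, which carries Igf2bp1, 159 of 814 fell (19.5%) and 25 rose, and on chromosome 17 74 of 454 fell (16.3%) and 11 rose. Chromosome 6 was the opposite, as 74 of 425 genes rose (17.4%) and 7 fell. On all other chromosomes 6.03% of 6547 genes rose and 5.35% fell.

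**Figure D4:**
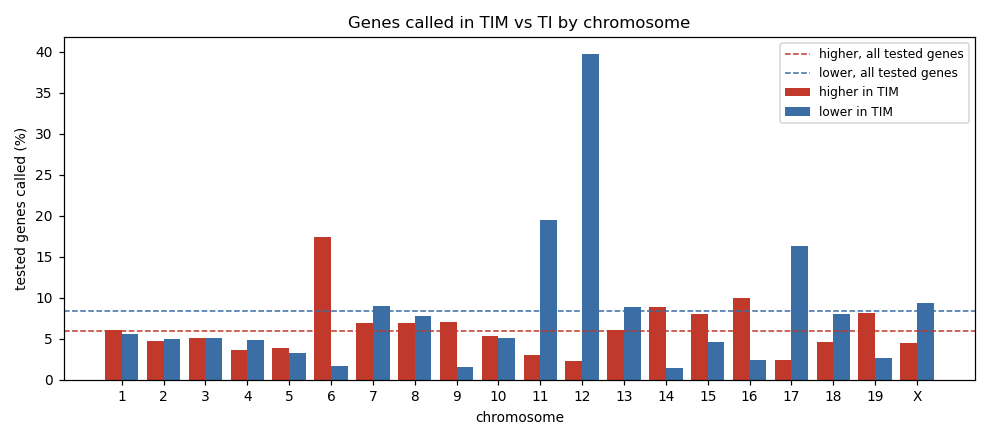
Share of the tested genes of each chromosome (percent, vertical axis) that rose (red) or fell (blue) in TIM against TI, with the shares over all tested genes as dashed lines. The blue bar of chromosome 12 reaches 39.8% and the red bar of chromosome 6 reaches 17.4%.

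For each tumor the level of a chromosome was taken as the median over its genes of the log2 difference from the mean tumor, relative to all genes of that tumor. Chromosome 12 stood at 0.01, 0.15 and 0.42 in TI and at -0.23, -0.16 and -0.05 in TIM. Every TIM tumor lay below every TI tumor, with a difference of -0.32 (exact permutation p 0.0001554, the smallest possible; 0.003108 adjusted over 20 chromosomes). Chromosome 11 stood at -0.06, 0.10 and 0.25 in TI and at -0.15, -0.12 and 0.05 in TIM, with 6 of 8 TIM tumors below all TI tumors (-0.19; adjusted exact permutation p 0.0140). Chromosome 6 was at -0.32, -0.10 and -0.02 in TI and at -0.09, 0.02 and 0.43 in TIM. Here 3 TIM tumors stood out, T_IM_7, T_IM and T_IM_6 at 0.43, 0.32 and 0.27, and the difference was 0.24 (adjusted exact permutation p 0.0255). That call was lost without T_I_1 or T_I_4 (adjusted exact permutation p 0.0528 and 0.0508). Chromosomes 9, 14 and 16 were higher in TIM by 0.14, 0.13 and 0.10 (adjusted exact permutation p 0.0233, 0.0233 and 0.0306), and chromosome 17 was lower by 0.14 without passing (adjusted exact permutation p 0.0548). Relative to the mean AG gland, chromosome 12 lay at 0.08, 0.19 and 0.42 in TI and at -0.17, -0.07 and 0.00 in TIM. TI tumors were thus above the mean AG gland and TIM tumors at or below it. The tumor-free AGM glands lay at -0.15, -0.09 and -0.05, within the range of the TIM tumors.

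In bins of 20 megabases with at least 10 tested genes, all 6 bins of chromosome 12 had a median of -0.45 to -0.26, and all 8 bins of chromosome 6 one of 0.06 to 0.43, beside -0.03 over all genes. On chromosome 11 the first 3 bins stood at 0.03, -0.06 and -0.02 and the other 4 at -0.34 to -0.20. Examples chosen after their values were seen are Eml5 of chromosome 12, a microtubule-associated protein (medians of 5.19 and 0.624 FPKM in TI and TIM, log2 difference -1.79), and the neuronal splicing regulator Nova1 (2.77 and 0.93 FPKM, -0.99). Gps2, a corepressor subunit on chromosome 11, had medians of 10.3 and 4.74 FPKM (-0.98), and Axin2, a WNT feedback gene, of 1.47 and 0.633 FPKM (-0.59). On chromosome 6 Cmas, which activates sialic acid, had medians of 2.94 and 7.54 FPKM (1.07) and Cops7a, a COP9 signalosome subunit, of 4.48 and 10.4 FPKM (1.09). These 6 genes had a limma FDR between 0.000217 for Eml5 and 0.00246 for Axin2. The values are of expression, so DNA copy number was not measured here. Per the study, shallow genome sequencing of TI tumors found substantial gains at chromosomes 11 and 12, and deletions mostly at 4, 6, 9, 14 and 16. TIM tumors had pronounced gains at chromosome 6, modest ones at 11 and hardly any deletions. The part of copy number in the expression differences was not tested.

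**Figure D5:**
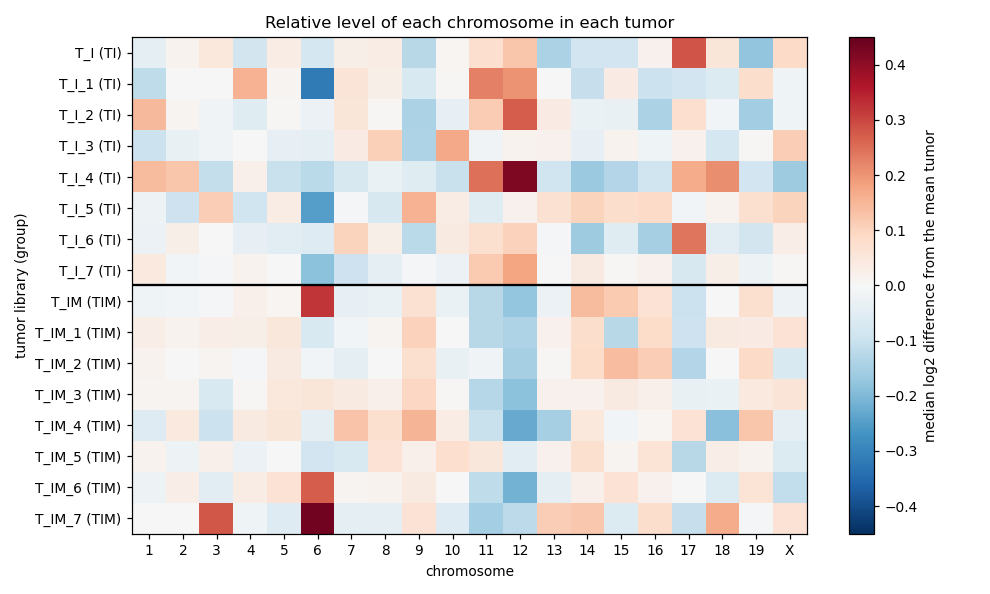
Relative level of each chromosome (columns) in each tumor (rows, TI above the line and TIM below), as the median log2 difference from the mean tumor (blue below and red above 0). Chromosome 12 is blue in all 8 TIM tumors and not in TI, and chromosome 6 is red most of all in T_IM_7, T_IM and T_IM_6.

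The same genes were read in the tumor-free glands, which share no library with the tumors. Between AGM and AG 2908 of 10171 genes (28.6%) were called. Of the 512 genes that rose in TIM 91.8% were higher in AGM than in AG (225 called higher and 2 lower), beside 46.2% of all tested genes. Of the 713 that fell 85.6% were lower in AGM (242 called lower and 3 higher), beside 53.3%. Got1 differed by 1.64, Ldha by 1.48, Aldoa by 1.81 and Slc2a1 by 1.40 in the glands, each called. AGM and AG differ in run as TIM and most TI samples do. Per the study, the mice with the MYCN transgene alone were culled at a fixed age, and the labels give no age for AG. Effects of MYCN, run and age therefore cannot be told apart in this likeness.

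A test of the difference between both comparisons called 1018 of 10171 genes (10%). Among them were 48 of the genes that rose (9.38%) and 66 that fell (9.26%), beside 4.56% of all genes tested in tumors. The interaction contains the same TIM minus TI difference that called these genes, so a share above that of all genes is built in. Its fit of 24 libraries pooled the spread of glands and tumors. It called 2332 genes between TIM and TI, beside 1225 of 8549 from the tumors alone. Srm differed by 0.84 between the tumors and by -0.40 between the glands (interaction 1.24; limma FDR 0.00139). Isl1 fell in TIM and differed by 0.23 between the glands (limma FDR 0.0275 for the interaction), and Axin2 differed by -0.59 in tumors and by 0.29 in glands (limma FDR 0.000189). Of the chromosomes, 12 had a median gene difference of -0.37 in tumors and -0.12 in glands, 11 of -0.21 and -0.09, 17 of -0.16 and 0.00 and 6 of 0.21 and 0.13.

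A last class of genes was all but silent in TI. Gm3020, a gene model with near-identical copies, had 0 to 43 reads in TI tumors and 308306 to 5333538 in TIM tumors, and the largest TIM value of Fndc9, a membrane protein of unknown function, was 187318282 reads while another TIM tumor had 0. Tmem212 and Gm3278 likewise ranged from 0 reads to 18718367 and 464481 in TIM and reached at most 114 and 17 in TI. Their log2 differences were 12.96, 12.75, 9.44 and 9.41, and all 4 passed the filter through TIM tumors. The calls of Fndc9, Tmem212 and Gm3278 were lost on recovered reads (limma-voom FDR 0.497, 0.755 and 0.517). In all, 16 called genes exceeded 1000 FPKM in a tumor, none of them in TI. Cpa1, a pancreatic enzyme, was at 0 in 1 or more TIM tumors and at 105724 FPKM in another, and at most at 0.0313 FPKM in TI. These values were deposited after a batch correction of counts, and its part in them was not tested. Without genes above 1000 FPKM 1212 genes were called.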

How the data were processed

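Strand-specific libraries of poly(A) RNA from 16 tumors (8 TI, 8 TIM) and 8 adrenal glands (3 AG, 5 AGM) were analysed from the deposited values of 21833 protein-coding genes. The authors deposited FPKM values, and a further column held gene lengths. The submitters' processing notes name cutadapt 2.8, HISAT2 2.1.0, SAMtools 1.10, featureCounts 2.0.0, edgeR 3.40 and the genome mm39. Per the study, counts were corrected for a batch effect with ComBat-seq and normalized by TMM. The annotation was not given in the sources used here. Columns of log2 fold changes, p-values and FDR of the authors' own comparisons with AG were not used. ComBat-seq maps counts onto a corrected distribution, so values of genes with few reads in 1 run can move far.

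Columns were matched to groups by name. The names match no single sample title, so run, zygosity and location of a column were not used. 0 per-sample columns were left out. To recover reads, values were multiplied by gene length and divided by a step fitted to the small values of each library. Of the values above 0, without those of high read number, 100% were whole reads within 0.1. In all, 0 pairs of columns were identical. Recovered reads are corrected values, so statements on reads cover counting error only.

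limma 3.58.1 (R 4.3.3, lmFit and eBayes with an intensity trend) was fitted to log2(FPKM + 1), with a pseudocount of 1, on the 16 tumors without covariates, for genes of at least 1 FPKM in at least 3 tumors. FDR were adjusted by Benjamini-Hochberg over all tested genes, with 0.05 as threshold. AGM vs AG, and the difference of both comparisons, came from a fit of all 24 libraries (10171 genes). Single values were compared by exact two-sided permutation over 12870 assignments. The labels tie no tumor to an animal, so p-values measure only the spread between these samples. The genes named were the 12 largest rises and falls among called genes with a mean of at least 1 FPKM in both groups, no tumor above 1000 FPKM and at least 7 of 8 TIM tumors on the same side of the TI median. To these were added up to 4 called members per list and direction, members whose role the text needs, the 4 largest rises of genes below 1 FPKM in TI, and genes described as chosen after their values were seen. Some members of these lists are not reported here by name. The members and the gene lists were chosen with earlier results of these data known, and the adrenergic and mesenchymal lists are the study's own. Gene positions and windows were read from GENCODE M39 on GRCm39 (21687 genes matched by identifier) with pysam 0.24.0, pandas 2.3.3 and numpy 2.4.6 in python 3.11.15. Simulated data of the TIM vs TI comparison held 8549 genes, of which 200 were changed. Of 100 genes changed by 1 on the log2 scale 87% were recovered, and of 100 changed by 2 97%. Of the calls 5.15% were false. The simulation drew independent noise with the same spread in both groups and no run effect. Its rates therefore need not hold for these tumors.

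Alternatives were a pseudocount of 0.1, other filters, all 24 libraries for the spread, rescaling to equal medians, array weights, genes above 1000 FPKM left out and each tumor left out in turn. limma-voom on recovered reads, the chromosome levels and the fit without genes of chromosomes 6, 11, 12 and 17 were added after the data were seen.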

Additional observations from a re-analysis of the deposited data

Results flagged for a closer look

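Over the 24 largest rises and falls, Mycn and Igf2bp1, 3 of 52 groups of 8 tumors held a tumor far from the others, where the gap to its neighbor divided by the range of the group exceeded Dixon's critical value. Chance gives about 1 in 20 such groups. Apod, the lipid carrier, reached 9.20 FPKM in 1 TI tumor, and the next TI tumor stood at 1.84 FPKM (gap over range 0.558). Gfra3, the artemin receptor, was at 3.51 FPKM in 1 TI tumor and at 19.8 FPKM or more in the others (0.600), so its TI level was high in 7 of 8 tumors. Clic1, the chloride channel protein, was at 1.56 FPKM in 1 TIM tumor and at 7.38 FPKM or more in the others (0.598).

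For 6 of the largest changes the difference between the tumors differed from that between the glands by the interaction test. They were picked by their difference between the tumors, which the interaction contains, so it is no separate evidence for that difference. Egr4 rose by 5.02 in TIM and differed by 1.14 between AGM and AG (interaction 3.88; limma FDR 0.0365). The other 5 fell in TIM without a like difference in the glands. Sctr, the secretin receptor, differed by -2.04 and 0.59 (interaction -2.63; limma FDR 0.0291), and Nxph4 by -1.60 and 1.05 (interaction -2.65; limma FDR 0.00723). Begain and Kif26a, both on chromosome 12, differed by -1.90 and 0.10 (interaction -2.0; limma FDR 0.0114) and by -1.90 and 0.36 (interaction -2.26; limma FDR 0.00997). Xlr3c differed by -1.40 and -0.00 (interaction -1.40; limma FDR 0.0101).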

How the results depend on the processing

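The 1225 called genes and the 224 with an absolute log2 difference of at least 1 depended on the settings. No named gene changed direction under those run, but rises became the majority of calls after rescaling (590 to 523) and without the genes of chromosomes 6, 11, 12 and 17 (351 to 303). With at least 1 FPKM in every tumor, which tests fewer genes (4036), the counts were 415 and 49. With all 24 libraries setting the spread 2261 genes were called, and with array weights 2757 and 436. A pseudocount of 0.1 gave 536 genes past the fold limit, and limma-voom on recovered reads 882 and 357. The causes of these changes were not tested. Without those 4 chromosomes 654 of 6547 genes were called, of which 53.7% rose. Leaving out 1 tumor gave 728 (without T_I_1) to 1535 (without T_IM_5) calls and 173 to 325 past the fold limit, with 774, 809 and 813 calls without T_I_4, T_IM and T_IM_3. The 2908 calls of AGM vs AG became 569 and the 1018 of the interaction 14 when every library had to reach 1 FPKM. They were 1727 to 1826 and 606 to 626 without 1 of the 3 AG glands, and 600 interaction calls were made with a pseudocount of 0.1. Of 103 named genes, 31 lost their call on recovered reads, 22 without a filter, 10 after rescaling and 2 with a pseudocount of 0.1, and 295 of 1648 calls were lost when 1 tumor was left out. The level of chromosome 12 differed by -0.35 to -0.29 without 1 tumor (adjusted exact permutation p up to 0.00622) and that of chromosome 11 by -0.21 to -0.17 (up to 0.0311), while chromosome 16 passed in 10 of 16 such comparisons. No paired analysis was run, because TI and TIM tumors came from mice of different genotypes and form no pairs. Depth limits genes such as Igf2bp1, with at most 81 reads in a tumor.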
